A study of Mus musculus with 8 samples.

Results

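The Kruppel-like factor genes Klf2, Klf3, Klf4, Klf6, Klf7, Klf9, Klf10, Klf13 and Klf16 are 9 of the 24421 genes in the count table, in which they were found by symbol. RNA was sequenced from neutrophils isolated by magnetic selection from the bone marrow of 8-week-old female C57BL/6 mice. WT mice and Padi4 KO mice (Padi4-/-, with exon 1 of the gene for the enzyme peptidylarginine deiminase 4 deleted) each gave unstimulated libraries and libraries from cells incubated for 6 h with R848, a TLR7 agonist, at 1 µg/ml. Each of the 4 groups had 2 libraries. The titles give 0 h for the unstimulated libraries and the methods give 6 h, so a response to R848 may also hold the effect of culture. The labels do not say whether the 2 libraries of a group came from separate mice. All p-values below therefore measure the spread between libraries, which may be technical.

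Kruppel-like factors are zinc finger transcription factors that bind GC-rich and CACCC sequences. They are usually placed in 3 groups by the partners they recruit: Klf2, Klf4, Klf6 and Klf7 are mainly activators that work with histone acetyltransferases, Klf9, Klf10, Klf13 and Klf16 recruit the corepressor Sin3a, and Klf3 recruits the corepressor Ctbp. In myeloid cells Klf2 is known to restrain inflammatory activation, Klf4 to promote the monocyte fate, and Klf6 to act with NF-kB in inflammatory macrophages.

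The promoters of Klf2, Klf4, Klf6 and Klf13 are shown because each of these genes passed the test in 2 or more comparisons below and the family itself binds such sequences. The sequences are those of RefSeq on GRCm38.p6, the 250 bases before the start, 5′ to 3′ on the strand of the gene. Capitals mark GGGCGG (the GC box) and CACCC on either strand. They lie at chr8:72318812-72319061 (Klf2, plus strand), chr4:55532476-55532725 (Klf4, minus strand), chr13:5861239-5861488 (Klf6, plus strand) and chr7:63938916-63939165 (Klf13, minus strand).
Klf2: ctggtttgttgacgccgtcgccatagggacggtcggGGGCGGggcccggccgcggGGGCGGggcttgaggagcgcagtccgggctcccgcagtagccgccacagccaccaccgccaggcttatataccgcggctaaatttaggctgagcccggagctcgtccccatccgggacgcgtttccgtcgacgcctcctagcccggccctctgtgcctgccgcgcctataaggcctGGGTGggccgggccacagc
Klf4: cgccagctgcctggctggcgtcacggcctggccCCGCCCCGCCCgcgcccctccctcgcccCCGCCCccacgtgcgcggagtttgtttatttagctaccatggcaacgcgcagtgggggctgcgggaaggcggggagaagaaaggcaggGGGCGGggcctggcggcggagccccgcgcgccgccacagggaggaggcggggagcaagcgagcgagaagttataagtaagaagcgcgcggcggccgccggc
Klf6: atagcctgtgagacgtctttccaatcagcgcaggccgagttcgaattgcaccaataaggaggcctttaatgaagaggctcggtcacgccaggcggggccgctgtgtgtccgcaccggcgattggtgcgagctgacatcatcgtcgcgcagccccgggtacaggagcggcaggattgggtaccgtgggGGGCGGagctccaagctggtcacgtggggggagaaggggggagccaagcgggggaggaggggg
Klf13: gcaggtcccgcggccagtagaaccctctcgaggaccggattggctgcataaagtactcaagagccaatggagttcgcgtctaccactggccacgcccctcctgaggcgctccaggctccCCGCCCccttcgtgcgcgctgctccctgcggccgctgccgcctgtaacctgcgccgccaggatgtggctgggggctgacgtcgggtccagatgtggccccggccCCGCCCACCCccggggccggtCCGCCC
RefSeq windows were matched for 7 of the 9 genes, all but Klf10 and Klf16. Their GC content ran from 59.2% to 78.4%, against a median of 52.4% over all 32851 windows of this length. GGGCGG was present in 6 of the 7 windows and in 32.7% of all windows. Klf3 held 6 copies, Klf4 held 4, Klf13 held 3 and Klf2 held 2. CACCC was present in 5 of the 7 and in 52.0% of all windows, and was not found in the Klf4 and Klf6 windows. CCAAT was present in 3 of the 7 (Klf6, Klf9 and Klf13) and in 33.9% of all, and the cAMP response element core TGACG in 4 of the 7 and in 17.8%. The E-box CACGTG was found in the Klf4 and Klf6 windows and in 6.02% of all, TGANTCA in the Klf9 window and in 6.75%, and a MEF2 element in the Klf2 window, 118 bases before the start, and in 0.508% of all. The NF-kB element (7.25% of all windows), the serum response element (1.47%) and TATAAA (12.4%) were in none of the 7. All motifs were read on both strands. CACCC overlapped GGGCGG in Klf3 and Klf13, and in Klf9 it overlapped TGANTCA. In Klf4, 2 GC boxes overlapped each other. The RefSeq start is not the outermost start in GENCODE for every gene: the Klf2 and Klf6 windows end just inside the GENCODE gene, the Klf3 window ends further inside it, and the Klf7 window lies wholly inside it. These are matches of letters in short windows, not measured binding.

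**Figure D1:**
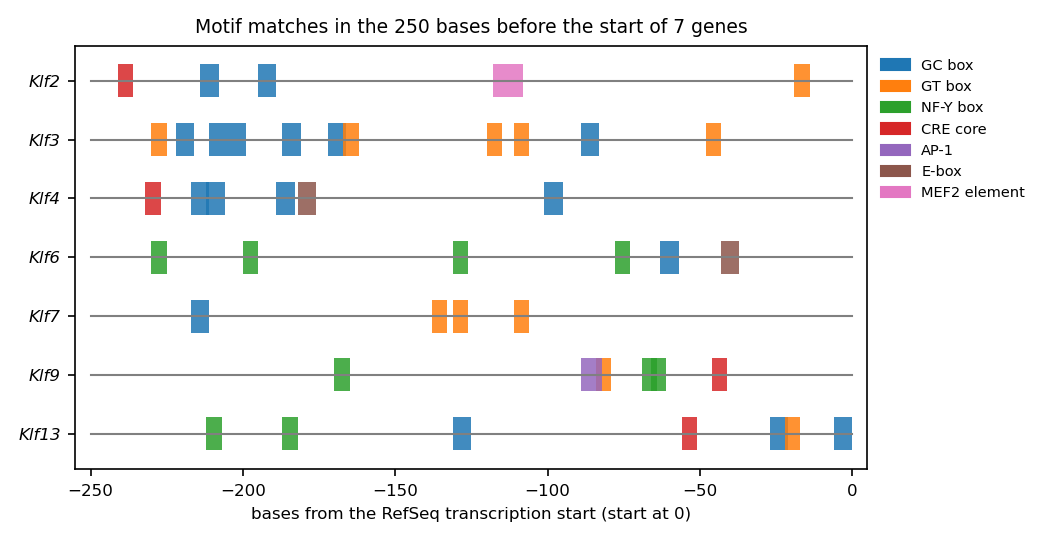
Motif matches in the 250 bases before the RefSeq start of 7 Kruppel-like factor genes, with bases from the start (0) on the horizontal axis and 1 line per gene; each coloured box is a match on either strand (GT box, CACCC; NF-Y box, CCAAT; CRE core, TGACG; AP-1, TGANTCA). Klf3 has 6 GC boxes, and the Klf6 window has 4 CCAAT boxes and 1 GC box.

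The libraries held between 562446 and 1177972 counts on genes, so 3 counts correspond to between 2.55 and 5.33 CPM (a count scaled to the size of its library). The 9 genes together took between 0.1% and 0.127% of the counts. Padi4 had 590 and 527 counts in the unstimulated WT libraries against 40 and 54 in Padi4 KO, and 166 and 234 against 34 and 21 after R848, so every library labelled KO was far below its WT counterparts. The counts of the 2 libraries of a group differed by more than counting error in every group, most in WT after R848, with chi-square per degree of freedom 1.67 there and between 1.05 and 1.16 in the others. Summed markers of mature neutrophils (10 of the 11 listed genes in the table, none at 0) took between 88913 and 104960 CPM in the WT libraries and between 73514 and 80265 CPM in Padi4 KO. Markers of immature neutrophils (11 genes, none at 0) took between 70046 and 74705 CPM in WT and between 53418 and 57033 CPM in Padi4 KO. Both sums were thus lower in Padi4 KO, as Klf6 and unstimulated Klf13 are below, and their part in those values was not tested. Erythroid markers (15 of the 16 listed genes in the table) ran from 162 to 204 CPM in unstimulated WT and from 40.4 to 72.1 CPM in WT after R848, where Gata1 and Car1 were at 0. In Padi4 KO they ran from 1821 to 1880 CPM and from 1932 to 1970 CPM, with none at 0.

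Levels between genes were compared per kilobase of exon. In unstimulated WT neutrophils Klf6 stood highest at 91.0 ± 9.20 CPM per kb (mean ± SD, n = 2), followed by Klf2 at 69.2 ± 2.72 and Klf13 at 66.0 ± 4.23, whose libraries overlapped. Klf10 at 9.54 ± 0.636, Klf4 at 7.20 ± 0.573 and Klf3 at 7.19 ± 0.253 formed a lower tier, in which Klf4 and Klf3 did not stand apart. Klf16, Klf9 and Klf7 were lowest, between 1.49 and 2.12 CPM per kb, and no neighbours among them stood apart. Klf6, Klf2 and Klf13 thus made up 35.5%, 27.1% and 25.8% of the summed level of the 9 genes.

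The order changed with R848. In WT neutrophils Klf6 reached 161 ± 27.9 and Klf2 111 ± 30.3 CPM per kb, while Klf13 stood at 23.1 ± 0.689 and no longer apart from Klf10 at 21.3 ± 5.0. The Klf13 share of the sum was 6.88% in WT after R848. In unstimulated Padi4 KO neutrophils the order was Klf6 (66.2 ± 2.93), Klf2 (55.3 ± 10.7), Klf13 (33.8 ± 0.0976) and Klf4 (12.3 ± 2.16 CPM per kb), and Klf13 made up 17.8%. After R848 in Padi4 KO, Klf2 (123 ± 3.63) stood above Klf6 (109 ± 0.729 CPM per kb), Klf13 made up 9.32%, and Klf4 was last at 0.296 ± 0.00710. The summed level was 256 ± 8.38 CPM per kb in unstimulated WT, 335 ± 2.34 in WT after R848, 191 ± 16.2 in unstimulated Padi4 KO and 284 ± 2.91 in Padi4 KO after R848.

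**Figure D2:**
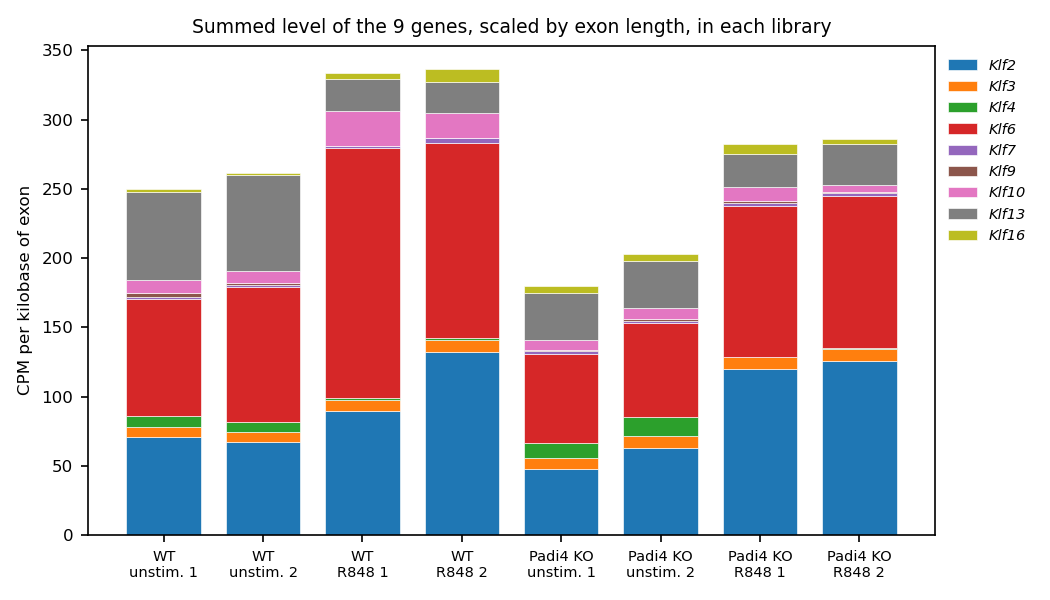
Stacked bars of CPM per kilobase of exon for the 9 Kruppel-like factor genes in each of the 8 libraries, from 0. Klf6, Klf2 and Klf13 fill most of each bar, and the Klf13 segment is largest in the 2 unstimulated WT libraries (25.8% of the bar on average) and smallest in WT after R848 (6.88%).

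The 4 groups allowed 5 comparisons. R848 was set against no stimulation within WT and within Padi4 KO, the 2 responses were subtracted (Padi4 KO minus WT), and Padi4 KO was set against WT without stimulation and after R848. Adjusted p-values come from the quasi-likelihood test of edgeR, with the Benjamini-Hochberg method applied over the 12254 genes tested, all 9 genes among them. A response was called at an adjusted p below 0.1 with more than 2-fold change, and the other comparisons at an adjusted p below 0.1. By exact permutation, 2 against 2 libraries cannot give a p below 0.333.

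In WT neutrophils Klf10 and Klf16 rose and Klf4, Klf9 and Klf13 fell after R848, 2 of 9 higher and 3 of 9 lower, where 7.17% of all genes tested were called higher and 10.8% lower. By adjusted p alone Klf2 and Klf6 also rose, giving 4 higher and 3 lower against 13.5% and 16% of all genes. In Padi4 KO neutrophils Klf2 rose and Klf4 fell, 1 of 9 each way, against 8.07% and 8.84% of all genes. By adjusted p alone Klf6 rose and Klf13 fell as well, 2 each way, against 19.2% and 15.9%. Over the 9 genes the median log2 fold change stood at 0.69 for WT and at 0.080 for Padi4 KO, against -0.17 and -0.031 over all genes tested.

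The response differed between genotypes for Klf13 (higher in Padi4 KO) and Klf10 (lower), 1 of 9 each way, against 3.45% and 1.26% of all genes. Without stimulation Klf4 was higher and Klf6 and Klf13 lower in Padi4 KO, 1 and 2 of 9, against 9.55% and 14.4%. After R848, Klf6 and Klf10 were lower, 2 of 9 against 7.81% of all genes. None was called higher there by edgeR (0 at an unadjusted p below 0.05, and 0 by DESeq2), against 9.46% of all genes. The medians over the 9 genes were -0.12, -0.29 and -0.17 in these 3 comparisons, against 0.19, -0.034 and 0.083 over all genes. Over 9 genes these shares describe the family and are not a test of it, and the genes are described singly below. Their libraries did not overlap between groups for 8 of 9 genes in the WT response, 5 in the Padi4 KO response, 8 without stimulation and 5 after R848, where 54.5%, 61.2%, 55.4% and 50.1% of all genes did not overlap.

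**Figure D3:**
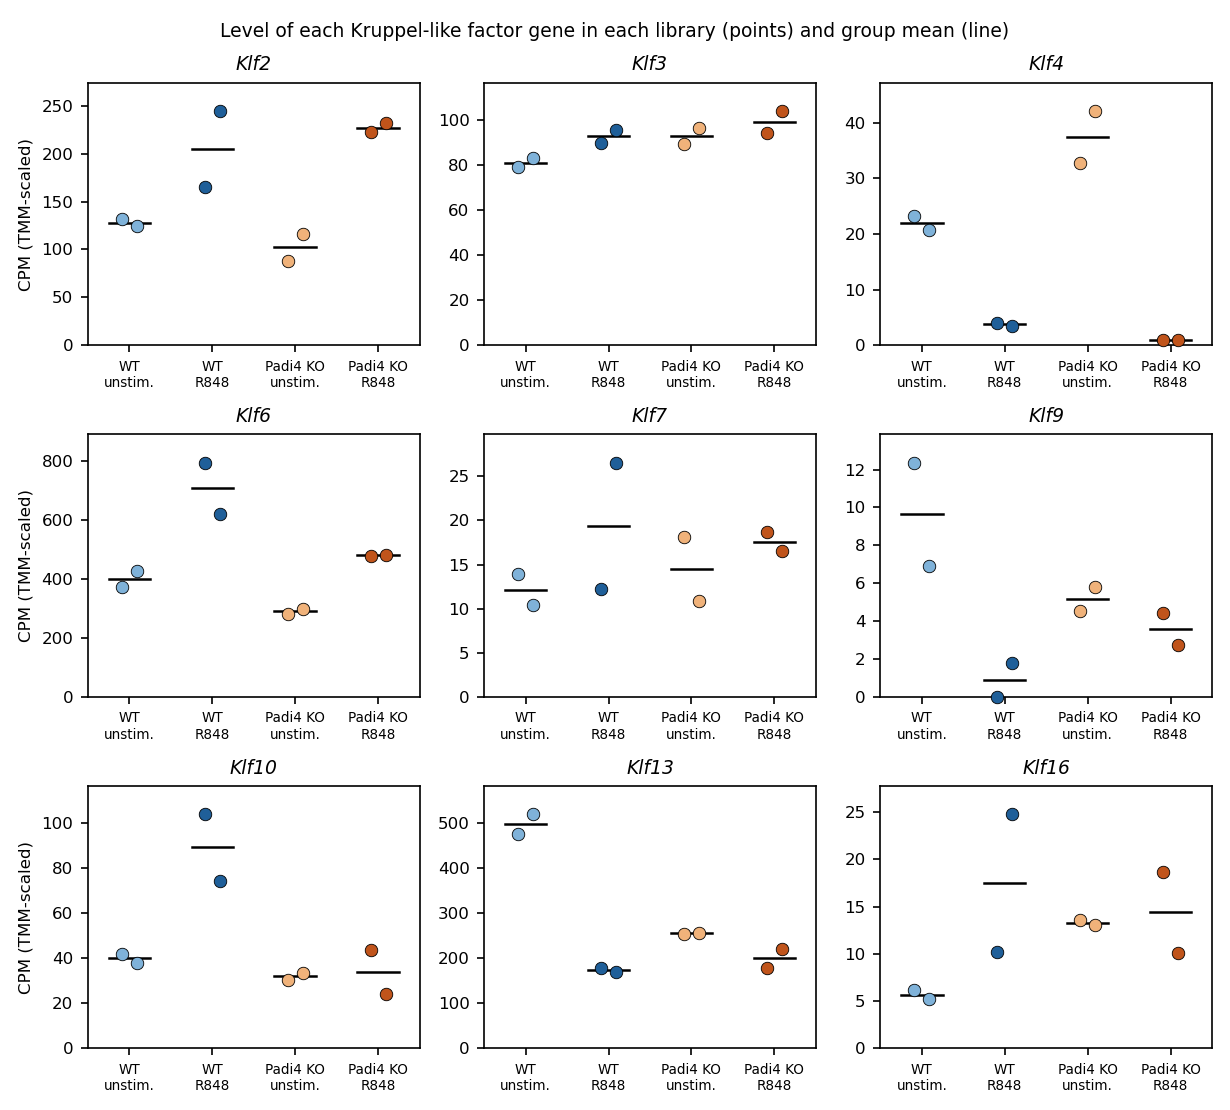
CPM (TMM-scaled) of each of the 9 genes in each library (points) by group, with the group mean as a line and each panel starting at 0. Klf13 stands between 475 and 520 CPM in unstimulated WT and between 170 and 255 CPM in the other 6 libraries; Klf4 is at or below 4.08 CPM in all 4 libraries given R848.

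Among the activators, Klf6 (GRCm38 chr13:5861482-5870394, plus strand) had the highest mean count of the 9 genes over the 8 libraries, although Klf13 had more counts in both unstimulated WT libraries (307 and 301 against 240 and 248). It is a broadly expressed factor induced by injury and growth signals. Its level was 371 and 428 CPM in unstimulated WT, 795 and 621 in WT after R848, 282 and 300 in unstimulated Padi4 KO, and 478 and 483 in Padi4 KO after R848. Both stimulated groups lay above their unstimulated groups, and both KO groups below the WT group given the same treatment. Klf6 rose with R848 by 0.82 on the log2 scale in WT (SE 0.102, adjusted p = 1.70e-14) and by 0.72 in Padi4 KO (SE 0.0933, adjusted p = 2.38e-13), both below 2-fold. The 2 responses differed by -0.10 (95% interval -0.38 to 0.17, adjusted p = 0.841). In Padi4 KO against WT, Klf6 was lower by a log2 fold change of -0.45 without stimulation (SE 0.105, adjusted p = 0.000237) and of -0.55 after R848 (SE 0.0921, adjusted p = 8.23e-08). Without WT R848 replicate 2 the WT response was 1.10, the difference of responses was -0.51 with adjusted p = 0.0126, and the unstimulated difference was -0.30. Scaled by library size alone the unstimulated difference was -0.16 (adjusted p = 0.342), and relative to the median of all genes with at least 10 counts on average it was -0.29 under either scaling.

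Klf2 (chr8:72319033-72321656, plus strand), which is known to keep T cells quiescent and to restrain myeloid activation, rose after R848 in both genotypes. It stood at 131 and 124 CPM in unstimulated WT, 165 and 244 in WT after R848, 88.2 and 116 in unstimulated Padi4 KO, and 222 and 232 in Padi4 KO after R848. All 4 stimulated libraries lay above all 4 unstimulated ones, and the widest spread was within WT after R848. The log2 fold change was 0.69 in WT (SE 0.160, adjusted p = 0.000123) and 1.11 in Padi4 KO (SE 0.125, adjusted p = 1.18e-17). The difference of responses was 0.42 (95% interval 0.020 to 0.82) and did not pass (adjusted p = 0.340). Klf2 did not pass between genotypes without stimulation (log2 fold change -0.29, adjusted p = 0.212) or after R848 (0.13, adjusted p = 0.602). With library size alone the difference after R848 passed (0.34, adjusted p = 0.0540). The 2-fold mark decided its calls: the WT response was 1.07 without WT R848 replicate 1, and the Padi4 KO response was between 0.96 and 0.98 without Padi4 KO unstimulated replicate 1, either WT R848 library or Padi4 KO R848 replicate 2, and 0.74 with library size alone. Without WT R848 replicate 1 the difference of responses was -0.096, and the unstimulated difference ranged from -0.53 without Padi4 KO unstimulated replicate 2 (adjusted p = 0.0772) to -0.13 without replicate 1 of that group, and was -0.0027 with library size alone.

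Klf4 (chr4:55527143-55532466, minus strand), a pluripotency factor that also drives monocyte differentiation, fell close to the limit of detection after R848. The counts were 15 and 12 in unstimulated WT, 2 and 2 in WT after R848, 29 and 58 in unstimulated Padi4 KO, and 1 and 1 in Padi4 KO after R848. These are 22.0 ± 1.75, 3.81 ± 0.378, 37.4 ± 6.58 and 0.904 ± 0.0217 CPM (mean ± SD, n = 2), and no unstimulated library overlapped a stimulated one. The log2 fold change in WT was -2.49 (SE 0.643, adjusted p = 0.000792), 5.63-fold lower. In Padi4 KO it was -5.19 (SE 0.535, adjusted p = 7.33e-21), and with 2 counts left the ratio of summed counts was 42.6-fold lower with a counting interval (exact binomial, 95%) of 11.4 to 357. The difference of responses was -2.70 (95% interval -5.05 to -0.35) and did not pass (adjusted p = 0.256). After R848 the 2 and 4 summed counts gave a ratio 4.19-fold lower in Padi4 KO with a counting interval of 0.601 to 46.4, and the test did not pass (adjusted p = 0.313). On libraries thinned to the smallest, and so on no more counts than these, it passed (fitted log2 fold change -4.37, adjusted p = 0.0957). Without stimulation Klf4 was higher in Padi4 KO by 0.80 (SE 0.318, adjusted p = 0.0594). That call was lost with DESeq2 (adjusted p = 0.464), after thinning all libraries to the smallest (0.153), and without WT unstimulated replicate 1 or 2 or Padi4 KO unstimulated replicate 2 (0.88, 0.72 and 0.58, adjusted p between 0.186 and 0.410).

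Markers of endothelial and stromal cells were lower after R848 in both genotypes and higher in Padi4 KO without stimulation, as Klf4 was, while after R848 they were higher in Padi4 KO and Klf4 was not. The summed level of 14 such genes ran from 231 to 275 CPM in unstimulated WT, 35.9 to 42.6 in WT after R848, 646 to 800 in unstimulated Padi4 KO and 62.0 to 63.5 in Padi4 KO after R848, and Emcn and Kitl were at 0 in all groups while Cdh5, Tek, Cxcl12 and Col3a1 were at 0 in all but unstimulated Padi4 KO. The neutrophils had been isolated with a magnetic neutrophil kit, and the methods give their purity as CD11b+ Ly6G+ cells. The part of endothelial and stromal cells in the Klf4 values was not tested. In bulk RNA, fewer cells of a type and less RNA per cell cannot be told apart. The sum over the 12 monocyte and macrophage markers went the other way with R848. It went from 2092 to 2098 CPM to 3450 to 3582 CPM in WT, and from 3318 to 3332 CPM to 3762 to 3858 CPM in Padi4 KO. Without stimulation the sum was higher in Padi4 KO than in WT, the direction of Klf4 there. Ly6c2, among the 12, fell with R848 (log2 fold change -0.81 in WT and -0.66 in Padi4 KO). It was also lower in unstimulated Padi4 KO (-0.27), so the direction of the sum does not hold for each marker. The part of these markers in the Klf4 values was not tested.

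Klf7 (chr1:64029447-64122282, minus strand), best known from neuronal development, was measured on few reads, with 9 and 6 counts in unstimulated WT, 6 and 15 in WT after R848, 16 and 15 in unstimulated Padi4 KO and 21 and 18 in Padi4 KO after R848. The groups overlapped in all 4 pairwise comparisons. The log2 fold change with R848 was 0.69 in WT (95% interval -0.28 to 1.67) and 0.36 in Padi4 KO (-0.35 to 1.06), and no comparison passed. The WT response was 1.25 without WT R848 replicate 1 (adjusted p = 0.0918) and 0.10 without WT R848 replicate 2 (adjusted p = 0.988). Of its exonic sequence, 3200 bp are shared with genes on the opposite strand, and the strand setting of the counting is not stated.

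Of the genes that recruit Sin3a, Klf13 (chr7:63886351-63938915, minus strand), first known as an activator of Ccl5 in T lymphocytes, had the smallest p of the 9 genes for the difference of responses. It stood at 475 and 520 CPM in unstimulated WT, 177 and 170 in WT after R848, 254 and 255 in unstimulated Padi4 KO, and 179 and 221 in Padi4 KO after R848. Unstimulated WT lay far above the other groups, and the stimulated WT and Padi4 KO libraries were close, those of Padi4 KO slightly higher. Klf13 fell with R848 by 1.52 on the log2 scale in WT (SE 0.128, adjusted p = 8.47e-31), 2.86-fold. In Padi4 KO it fell by 0.35 (SE 0.109, adjusted p = 0.00529), below 2-fold. The difference of responses was 1.16 (SE 0.171, 95% interval 0.83 to 1.50, adjusted p = 5.61e-09). Without stimulation Klf13 was 1.95-fold lower in Padi4 KO (log2 fold change -0.96, SE 0.104, adjusted p = 4.25e-18), and after R848 the log2 fold change was 0.20 (95% interval -0.069 to 0.47, adjusted p = 0.413). Without Padi4 KO R848 replicate 2 the Padi4 KO response was -0.64, the difference of responses 0.78 (adjusted p = 0.0103) and the difference after R848 -0.055, while with library size alone the latter was 0.42 (adjusted p = 0.0228). The Ccl5 transcript itself had 0 counts in all 4 unstimulated libraries, 11 and 10 in WT after R848 and 82 and 48 in Padi4 KO after R848, and rose in both genotypes (adjusted p = 2.85e-07 and 5.98e-37). After R848 it was higher in Padi4 KO by 1.55 on the log2 scale (adjusted p = 1.83e-05), a call that DESeq2 did not make.

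Klf10 (chr15:38291463-38300706, minus strand), also called TGF-beta inducible early gene, was called higher after R848 in WT and was lower in Padi4 KO after R848 than in WT. Its level was 41.7 and 38.0 CPM in unstimulated WT, 104 and 74.4 in WT after R848, 30.5 and 33.4 in unstimulated Padi4 KO, and 43.5 and 23.9 in Padi4 KO after R848. The 2 stimulated WT libraries lay above all others, and in Padi4 KO the stimulated libraries lay on either side of the unstimulated ones. The log2 fold change was 1.14 in WT (SE 0.253, adjusted p = 6.24e-05) and 0.070 in Padi4 KO (95% interval -0.40 to 0.55, adjusted p = 0.870). The difference of responses was -1.07 (SE 0.353, adjusted p = 0.0676), and Padi4 KO against WT after R848 was -1.38 (SE 0.230, adjusted p = 9.38e-08), 2.60-fold lower. Without stimulation it was -0.31 (95% interval -0.84 to 0.23, adjusted p = 0.501). The difference of responses missed the threshold when any of 5 libraries was left out (both unstimulated WT libraries, Padi4 KO unstimulated replicate 2, WT R848 replicate 1 and Padi4 KO R848 replicate 2, with log2 values from -1.14 to -0.93 and adjusted p from 0.144 to 0.277) and after thinning (adjusted p = 0.168), and was -1.81 without Padi4 KO R848 replicate 1. With library size alone the WT response was 0.83, below 2-fold.

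Klf9 (chr19:23141226-23168134, plus strand), a gene known to be induced by glucocorticoids, was at the limit of these libraries, with 8 and 4 counts in unstimulated WT, 0 and 1 in WT after R848, 4 and 8 in unstimulated Padi4 KO and 5 and 3 in Padi4 KO after R848. It was called lower after R848 in WT (adjusted p = 0.0241), where the ratio of 12 to 1 summed counts was 10.3-fold with a counting interval of 1.53 to 442. The call was lost with DESeq2 (adjusted p = 0.188), without WT unstimulated replicate 1 (0.214) and without WT R848 replicate 1 (0.224), and the fitted log2 fold change went from -3.18 to -6.07 without WT R848 replicate 2, the only one of the 2 libraries with a count. No other comparison of Klf9 passed.

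Klf16 (chr10:80567124-80577321, minus strand), a repressor described in brain and other tissues, had 4 and 3 counts in unstimulated WT, 5 and 14 in WT after R848, 12 and 18 in unstimulated Padi4 KO and 21 and 11 in Padi4 KO after R848. Its WT response was 1.63 on the log2 scale (SE 0.611, adjusted p = 0.0332), and that in Padi4 KO 0.12 (95% interval -0.62 to 0.87). The WT call was lost with DESeq2 (adjusted p = 0.161) and without either unstimulated WT library (0.108 and 0.138), and without WT R848 replicate 2 the response was 0.92 (adjusted p = 0.549). Without stimulation Klf16 stood 1.19 higher in Padi4 KO on the log2 scale and did not pass (adjusted p = 0.136). It passed with the filterByExpr filter (adjusted p = 0.0961), with library size alone (0.0521), in a model of the unstimulated libraries only (0.0791), and without either WT R848 library or Padi4 KO R848 replicate 2 (between 0.0796 and 0.0999).

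Klf3 (chr5:64803388-64832901, plus strand), the Ctbp-binding repressor of the 9, passed in no comparison. It stood at 78.8 and 82.9 CPM in unstimulated WT, 89.7 and 95.6 in WT after R848, 89.3 and 96.5 in unstimulated Padi4 KO and 94.2 and 104 in Padi4 KO after R848. All 8 libraries lay within this narrow range, although unstimulated WT lay below both WT after R848 and unstimulated Padi4 KO without overlap. The R848 response was 0.20 in WT (95% interval -0.22 to 0.62) and 0.080 in Padi4 KO (-0.22 to 0.38), and Padi4 KO against WT was 0.21 without stimulation (-0.15 to 0.57) and 0.092 after R848 (-0.27 to 0.45), so changes of over 2-fold lie outside these intervals. Leaving out each library moved the WT response between 0.16 and 0.38 (highest without WT R848 replicate 1) and the unstimulated difference between 0.15 and 0.36 (highest without WT R848 replicate 2), with no call. With library size alone the unstimulated difference was 0.50 (adjusted p = 0.0410). Klf3 shares 404 exonic bp with a gene on the opposite strand.

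**Figure D4:**
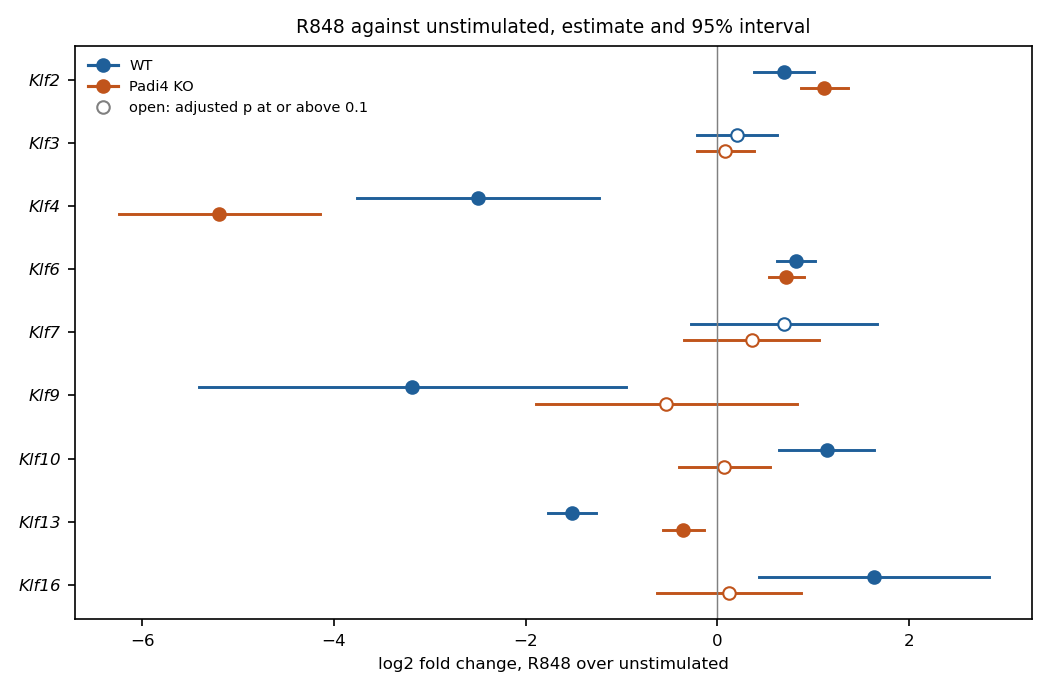
Log2 fold change with R848 (horizontal axis) for each gene in WT and Padi4 KO, as estimate and 95% interval; filled points have an adjusted p below 0.1. The WT and Padi4 KO intervals of Klf13 (-1.77 to -1.27 and -0.57 to -0.14) do not overlap, while those of Klf6 (0.62 to 1.02 and 0.54 to 0.90) overlap widely.

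**Figure D5:**
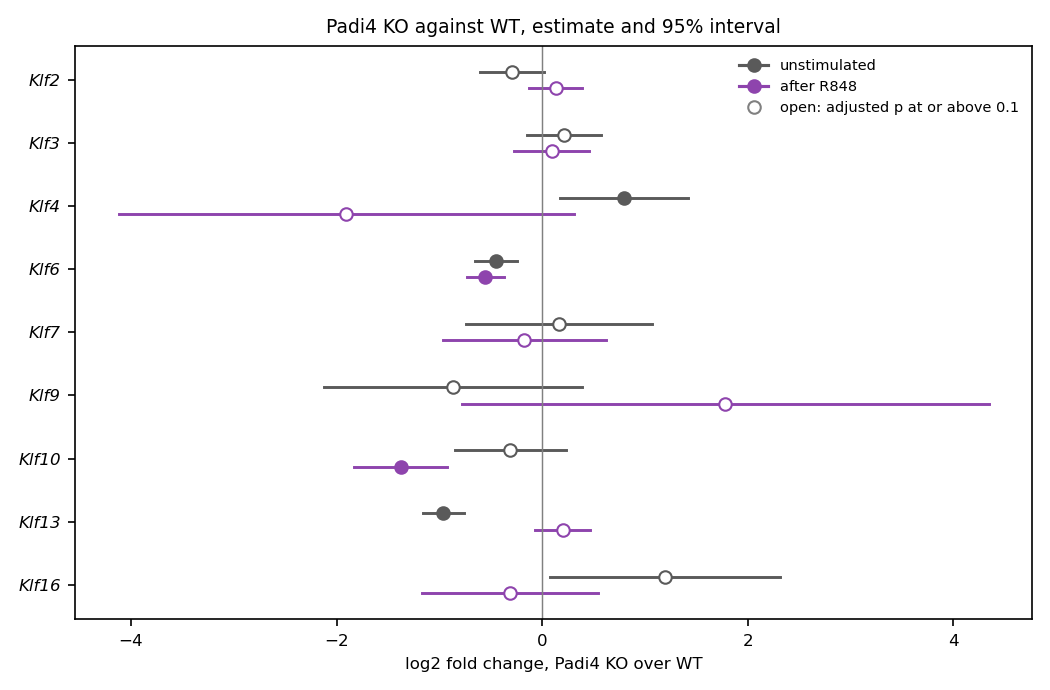
Log2 fold change of Padi4 KO over WT (horizontal axis) for each gene without stimulation and after R848, as estimate and 95% interval; filled points have an adjusted p below 0.1. Klf6 is lower at both treatments (-0.45 and -0.55), Klf13 only without stimulation (-0.96) and Klf10 only after R848 (-1.38) by this threshold.

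For the 4 genes with at least 50 counts on average, the genes whose log2 CPM was most alike over the 8 libraries were found among 2919 genes of at least 50 counts, by Pearson correlation as a description. Klf2 was most like Mvd and Elovl1 (r = 0.97 for each), Klf6 most like Ddx5 and Chd2 (0.99 for each), Klf13 most like Ankrd11 and Traf3ip3 (0.99 for each), and Klf3 most like Eif3d (0.93) and Pcbp1 (0.91). The 8 points share 4 groups, so a gene that differs between groups in the same way gives a high r.

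Of 17 other genes of the Sp and Kruppel-like family, 8 had enough counts to be tested. In WT, Klf11, a paralogue of Klf10, rose (1.01, adjusted p = 0.0596), and Sp1 and Sp2, widely expressed GC box activators, passed by adjusted p alone (0.49 and 0.94). In Padi4 KO, Sp1, Sp2 and Sp4 passed by adjusted p alone (0.92, 0.62 and 0.60), and none was called past 2-fold by edgeR or DESeq2 (3 higher and 0 lower at an unadjusted p below 0.05). Without stimulation Sp1 and Sp3 were lower in Padi4 KO (-0.38 and -0.36), and DESeq2 called neither. Klf1, the erythroid Kruppel-like factor, had 4 and 4 counts in unstimulated WT, 0 and 0 in WT after R848, 56 and 88 in unstimulated Padi4 KO and 65 and 73 in Padi4 KO after R848. It was higher in Padi4 KO without stimulation (log2 fold change 3.26, adjusted p = 6.00e-16) and at least 21.9-fold higher after R848, taking 3 counts over the WT group as the floor. In WT it was at least 2.30-fold lower after R848 by the same floor, and the difference of responses, which rests on the WT group at 0, passed with edgeR (adjusted p = 0.0595) and was not called by DESeq2. The erythroid markers above moved with it, and their part in the Klf1 values was not tested.

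A list of 19 genes for corepressors, coactivators and ubiquitin ligases that act with these factors was tested in full. In WT, Smurf2 (1.10) and Siah1a (1.33), both ubiquitin ligases, rose, and Wwp1 (-2.12), Kat2b (-1.12) and Btrc (-2.20) fell. Of all genes tested, 7.17% were called higher and 10.8% lower. By adjusted p alone Sin3b also rose (0.93), and Ctbp1 (-0.93) and Ncor1 (-0.36) fell. This gave 3 higher and 5 lower, against 13.5% and 16% of all genes. In Padi4 KO, Smurf2 rose (1.01, not called by DESeq2), against 8.07% of all genes. None fell past 2-fold by edgeR or DESeq2 (2 lower at an unadjusted p below 0.05), against 8.84%. By adjusted p alone 5 were higher, Sin3b (0.98) and Crebbp (0.63) among them, against 19.2% of all genes. The 2 lower by adjusted p alone were Ctbp1 (-0.43) and Wwp1 (-0.86), against 15.9%. No cofactor passed for the difference of responses with edgeR, where 5 were higher and 0 lower at an unadjusted p below 0.05, and DESeq2 called 0 and gave no adjusted p for 11. Without stimulation 5 were lower in Padi4 KO, among them Ncor1 (-0.49) and Ep300 (-0.33), against 14.4% of all genes. After R848 Ctbp1 (0.55) and Btrc (2.14) were higher, against 9.46% of all genes. DESeq2 called 1 lower without stimulation and 0 higher after R848. The median over the list was -0.26 in WT and -0.020 in Padi4 KO, against -0.17 and -0.031 over all genes.

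Of 21 genes known from other systems to be regulated by Kruppel-like factors, 18 were tested. In WT 6 rose and 3 fell, where 7.17% and 10.8% of all genes tested were called. Cd14, a TLR coreceptor (7.75), and Hif1a (2.84) were among the former and the integrin gene Itgb7 (-2.85) among the latter. In Padi4 KO 4 rose and 2 fell, against 8.07% and 8.84% of all genes, with Cd14 at 5.68, Hif1a at 2.03 and Itgb7 at -3.07. Cd14 (difference of responses -2.07, adjusted p = 3.88e-06) and Hif1a (-0.81, adjusted p = 0.0206) rose less in Padi4 KO than in WT, and the difference was positive for Mmp9 (0.28, adjusted p = 0.0523). Without stimulation 2 were higher and 6 lower in Padi4 KO, against 9.55% and 14.4% of all genes. After R848 2 were higher and 5 lower, against 9.46% and 7.81%. DESeq2 called 1 lower without stimulation, and 0 higher both after R848 and in the difference. It gave no adjusted p for 3 genes without stimulation, 3 after R848 and 11 in the difference. Mmp9, a granule protease, was lower in Padi4 KO without stimulation (-0.52). The list medians were 0.25 in the WT response and 0.061 in the Padi4 KO response (0.094 with Ccl5 at its bound and S1pr1, too low for one, left out), beside -0.17 and -0.031 over all genes.

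Klf10, like Klf6 and Klf2, is counted among genes induced early after stimulation, and 18 immediate early genes were read beside it. In WT 8 rose and 2 fell past 2-fold, where 7.17% and 10.8% of all genes tested were called. Nr4a1 was at 5.61, Egr1 at 2.74 and Fos at -2.45. In Padi4 KO 7 rose and 5 fell, against 8.07% and 8.84% of all genes, with Nr4a1 at 4.48, Egr1 at -2.58 and Fos at -6.55. For the difference of responses 9 were lower, against 1.26% of all genes, with Egr1 at -5.32 (adjusted p = 2.19e-29). None was higher by edgeR (0 at an unadjusted p below 0.05), against 3.45%. DESeq2 called 0 higher there and gave no adjusted p for 6 of the genes. Without stimulation 4 were higher and 2 lower in Padi4 KO (4 and 0 by DESeq2), against 9.55% and 14.4% of all genes. Fos (0.88) and Jun (1.28) were among the higher and Btg2 (-0.34) and Ier2 (-0.35) the lower, while Klf6 was lower (-0.45). After R848, 16 of the 18 were lower in Padi4 KO, against 7.81% of all genes. None was higher by edgeR (0 at an unadjusted p below 0.05, 0 by DESeq2), against 9.46%. Klf6 and Klf10 were lower there too, and Klf2 was not (0.13, adjusted p = 0.602). The list median after R848 was -0.76, against 0.083 over all genes.

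Klf9 was read beside 8 glucocorticoid-responsive genes, of which Dusp1 is also among the immediate early genes above. The list median was -2.08 in the WT response and -1.72 in the Padi4 KO response, or -1.55 and -1.09 with Zbtb16, at 0 after R848 in both genotypes, set to its bound by the floor of 3 counts over the group, against -0.17 and -0.031 over all genes. In WT 6 fell, including Tsc22d3 (-3.76), Fkbp5 (-2.32), Per1 (-2.47) and Dusp1 (-1.84), and Txnip rose (1.03), where 10.8% and 7.17% of all genes tested were called. In Padi4 KO 4 fell and 1 rose, against 8.84% and 8.07% of all genes. Tsc22d3 was at -2.79 and Per1 at -3.08, while Fkbp5 (-0.80) passed by adjusted p alone. For the difference of responses 4 were higher and 2 lower, against 3.45% and 1.26% of all genes. Among them were Fkbp5 (1.52, adjusted p = 2.70e-07), Sgk1 (1.05, adjusted p = 0.0318), Dusp1 (-0.79, adjusted p = 0.000301) and Txnip (-0.40, adjusted p = 0.0360). DESeq2 called 1 higher and 2 lower there and gave no adjusted p for 2. Without stimulation 5 were lower in Padi4 KO, against 14.4% of all genes, with Fkbp5 at -1.98 (adjusted p = 7.16e-51). None was higher by edgeR (0 at an unadjusted p below 0.05, 0 by DESeq2), against 9.55%. After R848, 3 were lower and none higher by edgeR, against 7.81% and 9.46% of all genes. There 2 were higher at an unadjusted p below 0.05, and DESeq2 called 0 higher. Fkbp5 stood at 390 ± 22.3 CPM in unstimulated WT, 77.5 ± 3.02 in WT after R848, 99.5 ± 6.33 in unstimulated Padi4 KO and 56.5 ± 3.27 in Padi4 KO after R848 (mean ± SD, n = 2), highest in unstimulated WT as Klf13 was.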

How the data were processed

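RNA-seq was carried out by the authors on an Illumina MiSeq in paired-end mode, and reads were checked with FastQC 0.11.7, trimmed with cutadapt 1.16, mapped to mm10 with STAR 2.5.3a and counted on genes with HTSeq 0.6.1p1, per the labels and the methods. The deposited values are raw counts per gene symbol, with no normalization. Neither the gene annotation used nor whether counting was stranded is given in the sources used here. Summary lines of the counting were left out; between 87.0% and 89.5% of each library lay on genes.

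A gene entered the tests if 2 or more of the 8 libraries had 1 or more counts for it. The tests were run with edgeR 4.0.16 in R 4.3.3 (TMM factors, 4 group means in 1 model, robust quasi-likelihood fit). SE was taken as the size of the log2 fold change over the root of F. The fit was tested on simulated data. Alternatives were the Wald test of DESeq2 1.42.0, other filters, scalings, thresholds and models, a block for replicate number, counts thinned to 562446 per library, and leaving out each library. Counting intervals are exact binomial at 95% and, like the floor of 3 counts, cover counting error only.

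The members and the gene lists were chosen with earlier results of these data known. All members were named; from each list, at most 4 genes per comparison past the threshold by smallest p, with at least 10 counts on average, and genes named for their role. Marker sums use CPM of the library total; other CPM use the TMM factors. Gene positions and exon lengths are those of GENCODE on GRCm38. Values of some listed genes are not reported here.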

Additional observations from a re-analysis of the deposited data

Results flagged for a closer look

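Klf13 and Klf10, 2 of the 9 genes, had a response to R848 that differed between genotypes by the test of the difference itself. For Klf13 the difference, Padi4 KO minus WT, was 1.16 on the log2 scale (adjusted p = 5.61e-09), with responses of -1.52 in WT and -0.35 in Padi4 KO. For Klf10 it was -1.07 (adjusted p = 0.0676), with responses of 1.14 in WT and 0.070 in Padi4 KO, and it was lost when any of 5 libraries was left out (adjusted p from 0.144 to 0.277), after thinning (0.168) and at a threshold of 0.05, while DESeq2 gave no adjusted p. The median difference over all genes tested was 0.19.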

How the results depend on the processing

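Over 763 values of single genes under the alternatives, 683 kept their direction and side of the threshold, 19 passed newly, 27 no longer passed and 34 changed sign. The Klf13 response in WT, its difference of responses and its unstimulated difference passed in every alternative run. Reversals concerned uncalled values. Scaling by library size alone shifted the median of all genes by -0.30 in the WT response, -0.38 in the Padi4 KO response, 0.29 without stimulation and 0.21 after R848, and relative log expression factors shifted it by -0.16 in the difference of responses.

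With DESeq2, 1 of the 9 genes was called higher in the WT response and 0 higher without stimulation, where Klf9 had no adjusted p. In the difference of responses 0 were lower, with no adjusted p for Klf4, Klf7, Klf9, Klf10 and Klf16. Over all genes DESeq2 called 719 lower in WT, 599 lower in Padi4 KO, and 35 higher and 90 lower in the difference. It called 475 higher and 586 lower without stimulation, and 387 higher and 621 lower after R848. By DESeq2 Klf10 was -0.0082 in Padi4 KO and Klf3 -0.0062 after R848. With library size alone, 1 gene was higher in WT and 0 in Padi4 KO, 3 were higher and 1 lower without stimulation and 2 higher after R848; over all genes the counts were 2106 lower in WT, 624 higher and 2072 lower in Padi4 KO, 255 higher in the difference, 1901 higher and 561 lower without stimulation, and 1870 higher and 417 lower after R848; and Klf3 was -0.10 in WT and -0.30 in Padi4 KO, Klf7 -0.018, Klf10 -0.31 and Klf16 -0.25 in Padi4 KO, and Klf7 0.039 after R848. With relative log expression factors, 160 genes were higher and 233 lower in the difference, Klf3 was -0.0030 and Klf10 -0.013 in Padi4 KO, and Klf3 was -0.0082 after R848. Without the fold minimum, 4 of the 9 genes were higher in WT and 2 higher and 2 lower in Padi4 KO, with 1657 of all genes higher in WT and 2352 higher and 1947 lower in Padi4 KO. At a threshold of 0.05, 0 were lower in the difference and 0 higher without stimulation. After thinning, 0 were lower in the difference and 0 higher without stimulation, Klf16 was -0.26 in Padi4 KO, and the differences of Klf3 and Klf6 were 0.16 and 0.019. With filterByExpr and with separate models 2 were higher without stimulation. Separate models could not be fitted for the difference of responses.

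Leaving out each library in turn gave 1 to 4 of the 9 genes higher in WT, 0 to 1 higher in Padi4 KO, 0 to 2 lower in the difference and 0 to 2 higher without stimulation. Over all genes it gave 51 to 293 higher and 98 to 350 lower in the difference, 778 to 1600 higher and 1116 to 1412 lower without stimulation, and 648 to 1180 higher after R848. Values that changed sign ranged in Padi4 KO from -0.12 to 0.15 (Klf3), -0.035 to 0.68 (Klf7), -0.57 to 0.30 (Klf10) and -0.53 to 0.36 (Klf16), in the difference from -0.096 to 0.66 (Klf2) and -1.03 to 0.13 (Klf7), without stimulation from -0.15 to 0.57 (Klf7), and after R848 from -0.25 to 0.38 (Klf2), -0.094 to 0.096 (Klf3), -0.73 to 0.44 (Klf7), -0.055 to 0.24 (Klf13) and -0.93 to 0.42 (Klf16). The cause of these changes was not tested. The libraries share only a replicate number: deviations of same-numbered libraries correlated between -0.020 and 0.020 over 6912 genes, and with the replicate block 862 genes were called higher in the WT response against 879 without it, with no change of call for the 9 genes. Depth limits Klf4 after R848, Klf7, Klf9 and Klf16, which rest on few counts.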
